A study of Mus musculus with 3 samples.

Results

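The genes described here are those of the proteasome, chosen by name. Loci of the deposited annotation whose gene name begins with Psma, Psmb, Psmc, Psmd, Psme, Psmf or Psmg followed by a digit were taken, which gave 51 of the 48617 loci with both expression values and an annotation. Of these, 49 held a reference mRNA and 2 were short transcripts antisense to Psmg4. One of the 49, Psmc3ip, encodes a meiotic recombination factor and no proteasome subunit, so 48 proteasome genes remained. Total RNA of heart ventricle from C57BL/6 mice (given as C57BL/6 J in the methods) was sequenced at the embryonic stages E10.5 and E13.5 (days after conception) and from adults of 8 weeks, with no agent given and 1 paired-end library for each stage. With 1 library each, differences between stages could not be tested against the spread between animals, so every comparison is one of single libraries and carries no p-value.

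The proteasome is the protease that degrades ubiquitin-tagged proteins. Its 20S core is a barrel of 2 outer rings of alpha subunits and 2 inner rings of beta subunits, and the beta subunits encoded by Psmb5, Psmb6 and Psmb7 carry the active sites. The 19S particle caps the barrel, recognises ubiquitin and unfolds the substrate with a ring of ATPases (Psmc genes). In immune cells and under interferon, Psmb8, Psmb9 and Psmb10 encode subunits that replace Psmb5, Psmb6 and Psmb7, and the resulting immunoproteasome helps to make peptides for MHC class I. In cardiac muscle the proteasome is known for the turnover of sarcomere proteins.

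Values are FPKM, which scale the fragments of a locus by its exon length and by the size of the library. The libraries may not share a common scale. Their median-of-ratios factors over mRNA loci were 1.08, 1.18 and 0.787 in order of age. Factors from the sum of mRNA FPKM without globin and mitochondrial loci were 0.934, 1.16 and 0.923. With 1 library per stage, a difference in scale and a real shift of most genes cannot be told apart. Several comparisons between libraries therefore depend on the scaling, and the main cases are stated below. Between genes, the levels of those with a near-identical copy elsewhere in the genome are uncertain. Changes are differences of log2(FPKM + 1), a scale that understates the change of low genes. A gene is said to have risen or fallen when this difference was 1 or more in size, which is 2-fold on that scale. Of the 48 genes, 47 reached 1 FPKM in at least 1 library and were compared. Psmb11, the thymus-restricted catalytic subunit, did not, with 0.0295, 0.0163 and 0.0899 FPKM. Here and below, 3 values in a row are those of the E10.5, E13.5 and adult libraries, in that order. Psmb9 passed this minimum through the adult library alone, and Psma8 through the embryonic libraries. Over the 12569 mRNA loci that passed it, the median change was 0.17 between the embryonic stages, -0.50 from E13.5 to adulthood and -0.40 over the whole interval, and the genes below are read against these shifts. Primitive globins (Hbb-y, Hbb-bh1 and Hba-x) summed to 6727, 16305 and 3.05 FPKM in the 3 libraries in order of age. Hbb-y alone carried the embryonic increase, from 4356 to 15112 FPKM, while Hbb-bh1 went from 1314 to 366 and Hba-x from 1057 to 827. The 7 cardiomyocyte genes examined summed to 15101, 22524 and 29176 FPKM. At E10.5 and E13.5 the lowest steps of the values placed about 13.8 and 26.7 fragments behind 1 FPKM over 1 kb. No step stood out in the adult library, so its depth is not given.

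The 48 genes took 1.00%, 1.02% and 0.719% of the FPKM of all mRNA loci. The order of the genes was similar in all libraries. Spearman's rho of their levels, a description over 48 genes that share each library, was 0.98 between the embryonic stages and 0.91 and 0.92 between the adult and E13.5 or E10.5. Psmb6, which encodes the caspase-like catalytic subunit, was the highest of all at 285, 380 and 163 FPKM.

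**Figure D1:**
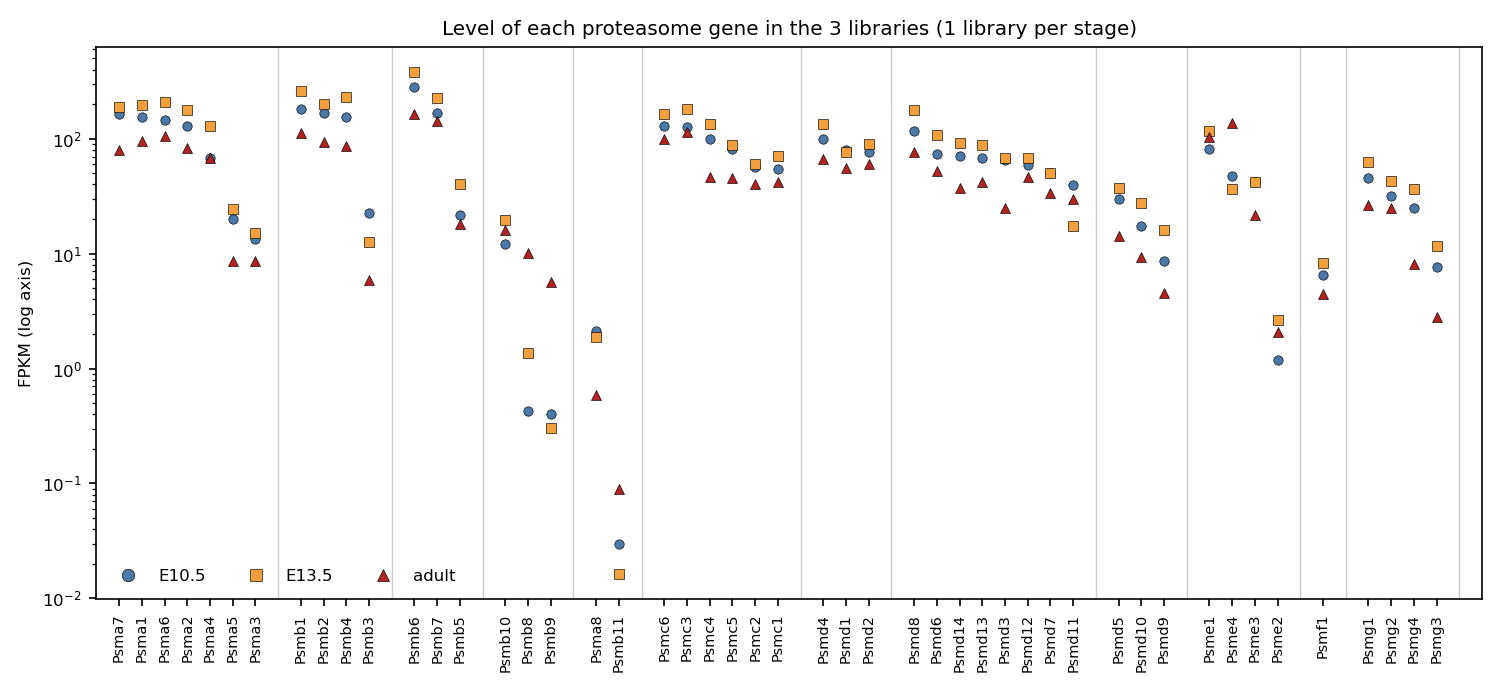
FPKM of each of the 48 proteasome genes on a log axis, in the E10.5 (circles), E13.5 (squares) and adult (triangles) libraries, with the genes grouped by role between the grey lines and 1 library per stage. Most 20S and 19S genes sit highest at E13.5 and lowest in the adult, whereas Psmb8, Psmb9 and Psme4 are highest in the adult.

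Of the 3 immunoproteasome genes, Psmb8 and Psmb9 were highest in the adult, whereas Psmb10 and the 3 constitutive catalytic genes were highest at E13.5. Psmb8, whose product replaces that of Psmb5, was at 0.431, 1.36 and 10.05 FPKM. Psmb9, whose product replaces that of Psmb6, was at 0.399, 0.305 and 5.71 FPKM. Psmb10, whose product replaces that of Psmb7, was at 12.1, 19.5 and 16.1 FPKM. Psmb9 at both embryonic stages and Psmb8 at E10.5 were thus under 1 FPKM, and Psmb8 was little above it at E13.5. Both genes were above 5 FPKM in the adult, whereas Psmb10 was present throughout. The low values rest on few fragments, about 7.27 for Psmb8 and 4.43 for Psmb9 at E10.5, and 44.3 and 6.55 at E13.5. The locus of Psmb10 also holds the neighbouring gene Ctrl, which encodes a chymotrypsin-like protease, so its value may include both.

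Psmb8 rose by 2.95 from E10.5 to the adult and Psmb9 by 2.26. A rise at least as large was seen at 2.04% and 4.296% of the 12569 loci. Most of the change came after E13.5, when Psmb8 rose by 2.23 and Psmb9 by 2.36. The adult value of Psmb10 was higher by 0.38 than that at E10.5 and lower by 0.26 than that at E13.5, and the latter difference turned to 0.29 higher when the libraries were rescaled. From E10.5 to E13.5 the changes of Psmb8, Psmb9 and Psmb10 were 0.72, -0.10 and 0.64, none of which reached 2-fold on the log2(FPKM + 1) scale. The plain FPKM ratio of Psmb8 over that step was 3.16.

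After E13.5, Psmb5 and Psmb6 fell where Psmb8 and Psmb9 rose, while Psmb7 and Psmb10 were both lower by less than 2-fold. Psmb5, the chymotrypsin-like subunit, was at 21.5, 40.1 and 18.0 FPKM, and Psmb7, the trypsin-like subunit, was at 167, 226 and 143 FPKM. Between E13.5 and the adult, Psmb5 fell by 1.11 and Psmb6 by 1.22, while Psmb7 was lower by 0.66. Under median-of-ratios scaling neither fall passed 2-fold. The 3 genes were lower by 0.25, 0.80 and 0.23 in the adult library compared with E10.5, and for Psmb5 and Psmb7 this direction turned under rescaling, to 0.18 and 0.22 higher.

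A ratio within a library does not depend on the scaling between libraries. Psmb8, Psmb9 and Psmb10 together amounted to 2.74%, 3.28% and 9.83% of the summed FPKM of Psmb5, Psmb6 and Psmb7. The adult ratio was 3.59 times that at E10.5. Psmb10 supplied most of the embryonic immunoproteasome signal. With Psmb10 and Psmb7 left out, the ratio was 0.271%, 0.396% and 8.70%, and the adult value was 32.1-fold that of E10.5. By pair, Psmb8 amounted to 1.999%, 3.39% and 55.9% of Psmb5, Psmb9 to 0.140%, 0.0801% and 3.50% of Psmb6, and Psmb10 to 7.25%, 8.64% and 11.3% of Psmb7. The high adult share of Psmb8 rests partly on the low value of Psmb5, which has a near-identical copy in the genome, as described further on. With the FPKM of the locus at that copy added to Psmb5, the shares were 0.647%, 2.12% and 34.7%.

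**Figure D2:**
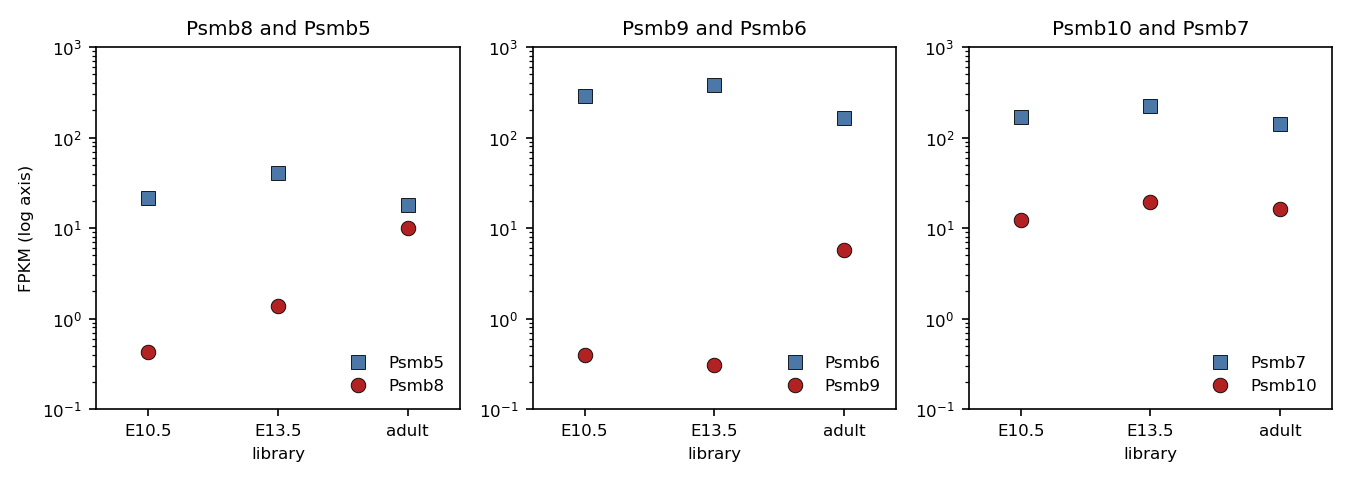
FPKM on a log axis of each immunoproteasome gene (red circles) and the constitutive gene whose product it replaces (blue squares), 1 library per stage. The gap between Psmb8 and Psmb5 narrows from 1.999% of the constitutive level at E10.5 to 55.9% in the adult, and that between Psmb10 and Psmb7 changes least.

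Psmb9 and Psmb8 lie close together in the MHC region of chromosome 17, at 34181986 to 34187330 on the minus strand and 34198195 to 34201454 on the plus strand (GRCm38). Between them lies Tap1, which encodes a subunit of the peptide transporter that feeds MHC class I. Tap1 starts 226 bp from the start of Psmb9 on the opposite strand, and the bases between the starts lie upstream of both genes. Tap1 was at 0.557, 0.525 and 4.62 FPKM, the same order of magnitude as Psmb9 in each library. The promoters of the 3 genes that rose, and that of Psmb5 as the constitutive counterpart of Psmb8, are given below from RefSeq on GRCm38.p6, with 250 bases before the start site and 10 from it onwards, 5′ to 3′ on the strand of the gene. They are at chr17:34197945-34198204 (plus strand) for Psmb8, chr17:34187321-34187580 (minus) for Psmb9, chr11:30771525-30771784 (plus) for Psme4 and chr14:54617986-54618245 (minus) for Psmb5. Capitals mark matches to 4 short motifs searched on both strands, the core of the interferon-stimulated response element (ISRE, the letters GAAA repeated after any 2 bases), the core of the gamma-activated site of interferon-induced promoters (GAS, TTCNNNGAA), the core of the antioxidant response element bound by the Nfe2l1 and Nfe2l2 factors (TGACNNNGC), and the CCAAT box (CCAAT).
Psmb8: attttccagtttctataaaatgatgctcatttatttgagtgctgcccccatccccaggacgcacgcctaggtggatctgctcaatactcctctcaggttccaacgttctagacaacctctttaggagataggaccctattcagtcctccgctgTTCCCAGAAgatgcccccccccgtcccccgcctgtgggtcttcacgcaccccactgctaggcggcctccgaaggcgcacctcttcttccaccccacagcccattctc
Psmb9: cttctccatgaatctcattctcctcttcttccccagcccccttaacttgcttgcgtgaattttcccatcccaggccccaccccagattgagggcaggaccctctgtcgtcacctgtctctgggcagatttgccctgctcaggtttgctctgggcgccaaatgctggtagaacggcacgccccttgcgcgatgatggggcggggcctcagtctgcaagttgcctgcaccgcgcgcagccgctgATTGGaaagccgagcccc
Psme4: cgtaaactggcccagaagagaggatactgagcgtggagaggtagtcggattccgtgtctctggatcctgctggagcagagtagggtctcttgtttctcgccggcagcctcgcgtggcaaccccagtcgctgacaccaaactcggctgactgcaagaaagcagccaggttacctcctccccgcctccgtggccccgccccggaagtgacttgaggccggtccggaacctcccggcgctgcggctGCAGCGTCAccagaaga
Psmb5: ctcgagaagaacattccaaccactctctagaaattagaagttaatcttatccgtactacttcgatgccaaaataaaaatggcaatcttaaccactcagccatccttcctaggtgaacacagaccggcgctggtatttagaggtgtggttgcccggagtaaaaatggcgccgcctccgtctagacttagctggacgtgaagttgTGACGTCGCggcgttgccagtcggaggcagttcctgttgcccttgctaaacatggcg

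The match in Psmb8 is a GAS core that begins 97 bp before the start, that in Psmb9 a CCAAT box 8 bp before it, and those in Psme4 and Psmb5 are antioxidant response element cores 7 and 47 bp before it. Motifs were counted over the whole RefSeq windows of 300 bp, of which 40 of the 48 genes had one that was used. A GAS core was found in 3 of these 40 (7.50%) and in 8.30% of all 32851 promoters. An ISRE core was found in 5 (12.5%), Psmb3, Psmd4, Psmd9, Psme1 and Psmg4, and in 3.44% of all promoters, but in none of Psmb8, Psmb9 and Psmb10. The antioxidant core was found in 6 (15.0%), Psmb5, Psmb6, Psmc6, Psmd9, Psmd12 and Psme4, against 12.4% of all promoters, and the CCAAT box in 13 (32.5%) against 37.4%. A match is a description of letters in this window, and none was set against binding.

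Genes of the interferon response and of MHC class I were examined beside the immunoproteasome. All 16 genes of the list had a higher level in the adult than they had at E10.5, and 14 of them rose, where 14.8% of all loci rose. Of these, Tap1, Tap2, Nlrc5, Ifit1 and Isg15 were under 1 FPKM at both embryonic stages. They passed the minimum of 1 FPKM through the adult library alone, so their direction was set by that minimum. Their median change was 1.82, against -0.40 over all loci. H2-K1, a classical MHC class I heavy chain, was at 4.301, 6.04 and 41.7 FPKM, and its light chain B2m was at 138, 224 and 556 FPKM. Nlrc5, the transactivator of MHC class I genes, was at 0.112, 0.153 and 4.87 FPKM. Ifit1, an interferon-induced gene, was at 0.0485, 0.296 and 6.02 FPKM. These 4 genes were highest in the adult, as Psmb8 and Psmb9 were, and the list was lowest at E10.5 in sum, at 221 FPKM against 356 at E13.5 and 865 in the adult. B2m made up most of the sum in each library.

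Markers of immune cells moved in the same direction. All 8 macrophage markers measured rose from E10.5 to the adult, where 14.8% of all loci rose, and they summed to 39.1, 96.9 and 414 FPKM in the 3 libraries. Lyz2 alone was at 32.5, 43.6 and 244 FPKM. Cd14 passed the minimum of 1 FPKM through the adult library alone, so its direction was set by that minimum. Csf1r, the macrophage growth factor receptor, was at 0.729, 6.01 and 24.4 FPKM. The 6 lymphocyte markers summed to 0.312, 1.49 and 16.7 FPKM, of which the pan-leukocyte gene Ptprc made up 15.0 in the adult. The other 5, among them Cd3e and Ms4a1, stayed under 1 FPKM in every library. Cd3e was at 0.118 FPKM in the adult and was listed at 0 at the embryonic stages. The endothelial markers summed to 290, 214 and 283 FPKM and the 5 fibroblast markers to 109, 297 and 434 FPKM. The adult increase of the fibroblast sum was that of Dcn, from 75.9 to 351 FPKM, and the other 4 were lower than at E13.5. The part of these cell types in the values of Psmb8 and Psmb9 was not tested, and in a whole-tissue library more cells of a type and more RNA per cell cannot be told apart.

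**Figure D3:**
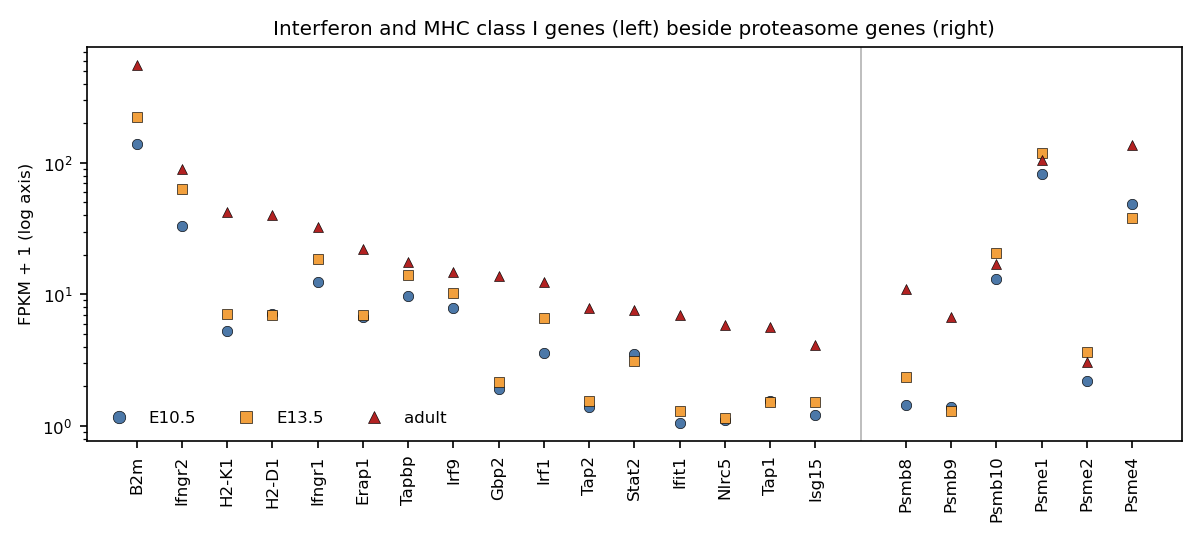
FPKM + 1 on a log axis of the 16 interferon and MHC class I genes (left of the grey line, ordered by adult level) and of 6 proteasome genes (right), in the E10.5 (circles), E13.5 (squares) and adult (triangles) libraries, 1 per stage. All 16 genes on the left are highest in the adult, as are Psmb8, Psmb9 and Psme4, while Psmb10, Psme1 and Psme2 are highest at E13.5.

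The 31 constitutive genes of the 20S core and the 19S particle mostly moved in the same direction, as did most loci. Between the embryonic stages, 27 of the 31 were higher at E13.5 and 4 were lower, where 7910 of all 12569 loci were higher. Of the 31, 24 were higher with median-of-ratios scaling and 18 with the sum of mRNA FPKM without globin and mitochondrial loci. In the adult 30 were lower than at E13.5, and Psmd11 was the 1 that was higher, while with median-of-ratios scaling 26 were lower. Over that step 8414 of all loci were lower. Compared with E10.5, all 31 were lower in the adult, although with median-of-ratios scaling 9 of them turned to higher. Over the whole interval 8127 of all loci were lower. The median changes of the 31 genes were 0.35, -0.99 and -0.58, against 0.17, -0.50 and -0.40 over all loci. Relative to the median of all loci, 29 of the 31 lay below it after E13.5 and 23 below it over the whole interval.

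Between the 2 embryonic stages few genes changed 2-fold, among the 47 compared as among all loci. From E10.5 to E13.5 none rose, where 5.89% of all loci did, and Psmd11 was the 1 that fell, where 4.85% of all loci fell. From E13.5 to the adult, 3 rose (6.38%), against 13% of all loci, and 21 fell (44.7%), against 32.1%. From E10.5 to the adult, 3 rose (6.38%), against 14.8% of all loci, and 8 fell (17.02%), against 27.3%. With median-of-ratios scaling 2 fell over this interval, and 2237 of all loci did. Psmb8, Psmb9 and Psme4 were the 3 that rose in both comparisons with the adult, and they kept this direction under both rescalings. The number that fell after E13.5 depended strongly on scaling, with 3 under median-of-ratios factors and 8 under the sum of mRNA FPKM without globin and mitochondrial loci. Without a minimum level, Psmb11 entered as well and changed by less than 2-fold. Genes of proliferation, which moved with these falls, summed to 319, 375 and 6.15 FPKM and fell in 6 of 6 cases from E10.5 to the adult, and their part in the falls was not tested.

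**Figure D4:**
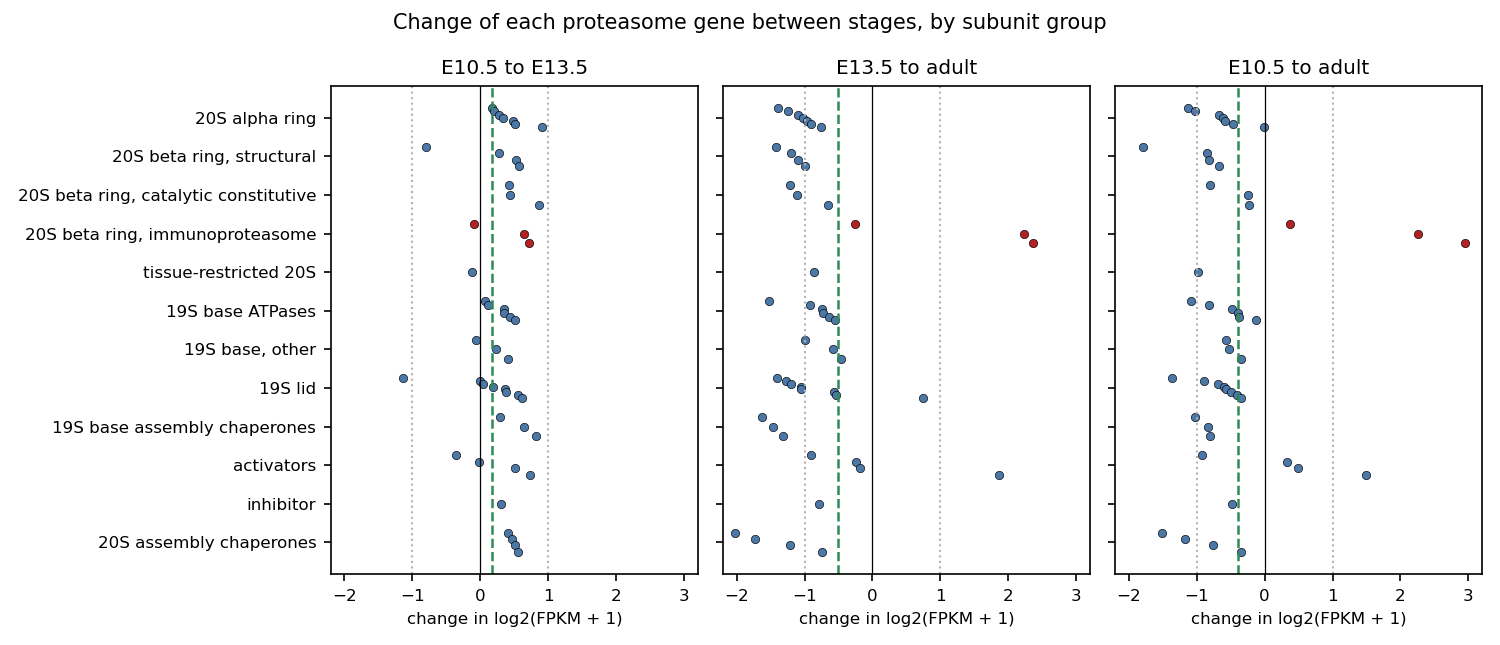
Change in log2(FPKM + 1) of the 47 proteasome genes compared, by role, for the 3 pairs of stages, 1 library per stage; each point is a gene, with the immunoproteasome genes in red. The solid line is no change, the dashed green line is the median of all 12569 mRNA loci (0.17, -0.50 and -0.40) and the dotted lines mark 2-fold. After E13.5, 39 of the 47 points lie left of the green line, and the 8 to its right are Psmb8, Psmb9, Psmb10, Psme1, Psme2, Psme4, Psmd1 and Psmd11.

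Among the 7 alpha ring genes, Psma7 was the highest at E10.5, with 163, 188 and 79.2 FPKM, and it fell by 1.03 from E10.5 to the adult. Psma3 was the lowest, with 13.3, 15.1 and 8.57 FPKM. Psma5, another alpha subunit, was at 20.1, 24.4 and 8.67 FPKM and fell by 1.13. Rescaling brought these changes of Psma7 and Psma5 to -0.58 and -0.71, short of 2-fold. All 7 were lower in the adult than at E13.5, and 4 of them fell, where 32.1% of all loci fell. None of the 4 passed 2-fold under median-of-ratios scaling. Psma8, which replaces Psma7 in the testis, was at 2.12, 1.87 and 0.583 FPKM.

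The 4 structural beta genes ranged from Psmb1, at 181, 261 and 113 FPKM, down to Psmb3, at 22.6, 12.6 and 5.84 FPKM. Psmb3 was the 1 of the 4 that was highest at E10.5, and it fell by 1.79 from then to adulthood, the largest fall of the 47 genes over that interval. The other 3 were each highest at E13.5. Over the 14 constitutive 20S genes the median was 150, 192 and 84.8 FPKM.

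The 19S genes were lower than the 20S genes in every library, with medians over 17 genes of 73.8, 87.6 and 46.3 FPKM, or 0.493, 0.457 and 0.546 of the 20S median. Among the 6 ATPases of its base, Psmc6 was the highest at E10.5 (130, 165 and 99.8 FPKM) and Psmc1 the lowest (55.0, 70.5 and 41.8 FPKM). Psmc4, another of the ATPases, was at 99.5, 135 and 46.3 FPKM and was the one that fell from E10.5 to the adult, by 1.09. Rescaling brought this change to -0.64, short of 2-fold. Of the other base subunits, the ubiquitin receptor Psmd4 was at 99.7, 133 and 66.6 FPKM and the scaffold Psmd2 at 76.6, 90.4 and 60.1 FPKM. Both were highest at E13.5 and lowest in the adult, and neither changed 2-fold.

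Among the 8 lid genes, Psmd8 was the highest at E10.5 (117, 178 and 76.9 FPKM) and Psmd11 the lowest (39.6, 17.4 and 29.7 FPKM). Psmd11 stood apart from the rest of the lid, since it was lowest at E13.5, where the other subunits were highest or near their E10.5 level. It fell by 1.14 to E13.5 and was 0.74 higher in the adult than at E13.5. Psmd3, a scaffold subunit of the lid, was at 65.5, 67.5 and 24.97 FPKM and fell by 1.36 from E10.5 to the adult. Rescaling brought this change to -0.92, short of 2-fold. Psmd14, the deubiquitinase of the lid, was at 70.6, 91.8 and 37.4 FPKM and was lower by 0.90 over the same interval.

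Genes for the assembly of the complex had lower medians than those for its subunits. The 3 chaperones of the 19S base had medians of 17.3, 27.5 and 9.32 FPKM, with Psmd5 the highest (30.2, 37.0 and 14.3 FPKM) and Psmd9 the lowest (8.63, 16.1 and 4.52 FPKM). All 3 fell from E13.5 to the adult, where 32.1% of all loci fell, but Psmd5 and Psmd10 did not pass 2-fold under median-of-ratios scaling, at -0.75 and -0.92. The 4 chaperones of the 20S core were led by Psmg1 (45.1, 62.5 and 26.3 FPKM) and ended with Psmg3 (7.63, 11.7 and 2.82 FPKM). Psmg4 was at 25.1, 36.2 and 8.14 FPKM and fell by 2.03 after E13.5, and Psmg3 fell by 1.73. Their median change over that step was -1.47, against -1.09 for the 14 subunits of the 20S core and -0.50 for all loci. The 2 antisense transcripts at Psmg4 were low. One was at 0.506 FPKM at E10.5, was listed at 0 at E13.5 and was at 0.618 FPKM in the adult, and the other was at 1.02, 0.142 and 0.194 FPKM. Psmf1, which encodes an inhibitor of the 20S core, was at 6.55, 8.36 and 4.44 FPKM.

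The activators, which open the 20S barrel in place of the 19S particle, did not move together. Psme4 encodes PA200, a nuclear activator linked to the breakdown of acetylated histones, and was at 47.7, 36.9 and 136 FPKM. It was the third of the genes that rose, by 1.86 after E13.5 and by 1.49 from E10.5. A rise that large from E10.5 was found at 9.28% of all loci. Psme3, the nuclear REG gamma activator, was at 42.4, 41.7 and 21.8 FPKM and was lower by 0.93 in the adult than at E10.5. Psme1 and Psme2 encode the alternating subunits of PA28, the interferon-inducible activator, and were at 82.1, 117 and 103 FPKM and at 1.19, 2.64 and 2.08 FPKM. Psme1 and Psme2 were higher in the adult than at E10.5 by 0.33 and 0.49, short of 2-fold, and lower than at E13.5 by 0.18 and 0.24, both of which turned to higher under rescaling.

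Set against the median of the constitutive 20S genes in the same library, Psme4 stood at 0.319, 0.192 and 1.61, so in the adult it exceeded the typical core subunit. The same ratio was 0.548, 0.612 and 1.22 for Psme1 and 0.283, 0.217 and 0.258 for Psme3. Psme4 and Psme1 were thus higher relative to the core in the adult than in either embryo, and Psme3 was not. Psme1 was 68.8, 44.4 and 49.8 times as high as Psme2, although their products form 1 ring. Psme2 has a copy elsewhere with 99.4% identity over 88.6% of its mRNA, so its value and this ratio are uncertain. The locus of Psme2 starts 10 bp from that of Irf9 and Rnf31 on the opposite strand and overlaps it by 308 bp. That locus, of which Irf9 encodes an interferon response factor, was at 6.89, 9.24 and 13.9 FPKM.

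The spread among subunits of 1 complex was wide. The highest of the 31 constitutive 20S and 19S genes was 21.3, 30.2 and 27.9 times the lowest. Levels differed between genes with and without a near-identical copy elsewhere in the GRCm38 chromosomes, defined as alignments of 95% identity or more that together cover at least 50% of the reference mRNA. Of the 31 genes, 7 had such a copy (Psma3, Psma4, Psma5, Psmb3, Psmb5, Psmd2 and Psmd11), and among the remaining members Psme2 had one. Medians over these 7 genes were 22.6, 24.4 and 18.0 FPKM. The 24 genes without a copy had medians of 108, 150 and 71.8 FPKM, and the lowest of them was at 50.8 FPKM at E10.5. The same 7 loci were assembled into 5 to 9 transcripts each, whereas the other 24 had 1 to 4.

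**Figure D5:**
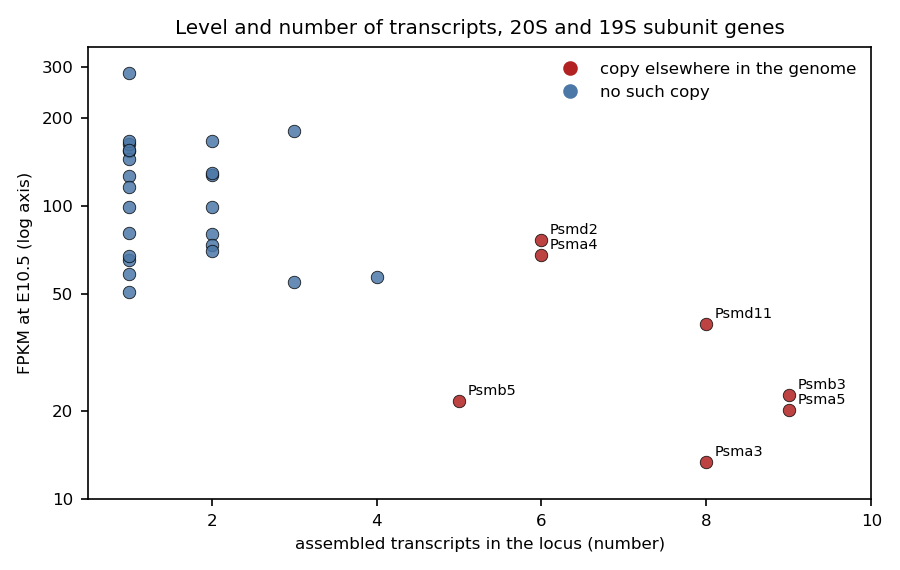
FPKM at E10.5 (log axis) against the number of assembled transcripts in the locus for the 31 constitutive 20S and 19S genes, 1 library. The 7 genes with a near-identical copy elsewhere (red, named) have 5 to 9 transcripts and a median of 22.6 FPKM, and the 24 without one (blue) have 1 to 4 transcripts and a median of 108 FPKM.

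At the copies of 5 of these genes, the table held unnamed loci with a single transcript. The copy of Psma3 on chromosome 6 (31141892 to 31142643, minus strand) matched with 100% identity over 60.9% of the mRNA and was at 194, 274 and 141 FPKM, far above Psma3 itself. The copy of Psmb5 on chromosome 7 (3181076 to 3181957, plus strand) was at 45.0, 24.0 and 10.99 FPKM. The copies of Psma5 on chromosomes 10 and 4 were at 44.5, 52.8 and 16.9 FPKM and at 20.2, 26.2 and 8.95 FPKM. Fragments of a gene and its copy may be exchanged in the assignment, so the values of these members are uncertain.

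With such copy loci added, Psma3 came to 286, 347 and 150 FPKM. FPKM is per length and the loci added to Psma3 are much shorter than its mRNA. This sum is therefore too high and does not rank Psma3 among the alpha subunits. The sums given next are also approximate. Of the locus added to Psmb3, 50.8% lies within the copy, and of that added to Psmb5, 98.5%. Psmb3 came to 92.4, 135 and 63.3 FPKM, and its change from E10.5 to the adult shrank from -1.79 to -0.54. Psmb5 came to 66.5, 64.0 and 29.0 FPKM, and its change from E10.5 to E13.5 went from 0.87 to -0.05. The low place of these genes among the subunits, the fall of Psmb3 and the embryonic increase of Psmb5 therefore depended on how the copies were treated. Of the 24 genes without a copy, 22 were higher and 2 lower at E13.5 than before, where 7910 of all 12569 loci were higher. Among the 22, Psma7, Psmb2, Psmc2, Psmc5, Psmd3 and Psmd12 turned to lower under rescaling. After E13.5, 24 of 24 were lower, where 8414 of all 12569 loci were. Their median change over that step was -1.03, against -0.50 over all loci. Of these 24, Psmc2, Psmd1, Psmd7 and Psmd12 turned to slightly higher after E13.5 with median-of-ratios scaling. Psmd11, whose copy lies within the locus of A730017L22Rik at 0.222, 0.343 and 0.444 FPKM, was among those left out.

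Members were also examined for head-to-head neighbours, defined as loci on the opposite strand that start within 3000 bp. Such a neighbour with an mRNA was found for 11 of the 48 genes (22.9%), against 15.9% of the 12569 loci. Psma2 starts 53 bp from Mrpl32, a mitochondrial ribosomal protein gene at 48.4, 60.3 and 41.4 FPKM. Psmd13 starts 85 bp from Sirt3, a mitochondrial deacetylase gene at 12.5, 16.7 and 18.4 FPKM. Psmd13 itself was at 67.6, 87.5 and 41.8 FPKM, so that this pair was highest at different stages.

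Genes known to control proteasome gene expression were compared as a list of 5. Nfe2l1, the factor that induces subunit genes when the proteasome is inhibited, was at 25.1, 20.8 and 73.2 FPKM and rose by 1.51 from E10.5 to the adult. Vcp, the segregase that releases it from the endoplasmic reticulum, was at 8.21, 47.4 and 27.5 FPKM and rose by 1.63. Ngly1, Nfe2l2 and Ddi2 changed by 0.96, 0.70 and -0.45. Nfe2l1 was highest in the adult, where the 31 constitutive subunit genes were lowest as a group.

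The list of muscle ubiquitin ligases held 4 of 8 genes that rose from E10.5 to the adult and 1 that fell, against 14.8% and 27.3% of all loci. Fbxo40, a ligase of striated muscle, was at 6.10, 10.3 and 82.3 FPKM and rose by 3.55. Trim54 (MuRF3) was at 8.19, 2.53 and 46.3 FPKM and rose by 2.36, and Trim63 (MuRF1) was at 32.9, 48.1 and 93.3 FPKM and rose by 1.47. Trim55 (MuRF2) was at 141, 108 and 38.0 FPKM and fell by 1.86. Of 6 ubiquitin and E1 genes, 3 fell over the same interval, where 27.3% of all loci fell, among them the polyubiquitin gene Ubb at 270, 407 and 125 FPKM. The 3 falls were of 1.02 to 1.18, little past 2-fold, and were not checked singly under rescaling.

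Of 11 further genes of the proteasome system outside the naming rule, 2 fell from E10.5 to the adult and none rose, against 27.3% and 14.8% of all loci. The shuttle factor Ubqln2 was at 19.9, 4.15 and 3.21 FPKM and fell by 2.31, and Ubqln1 was at 65.5, 61.1 and 22.0 FPKM and fell by 1.53. Pomp, the maturation factor of the 20S core, was at 130, 194 and 110 FPKM, the same order of stages as most core subunits.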

How the data were processed

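Ventricle total RNA of 3 stages, 1 library each, was analysed. The authors prepared stranded total RNA libraries, mapped the reads to mm10 with TopHat2 (TopHat in the submitters' processing notes) and Bowtie and assembled them with Cufflinks, with further versions not given in the sources used here. The deposited table gives FPKM per merged locus, and the deposited annotation gives the exons and RefSeq matches. How fragments mapping to several places were counted is not given in the sources used here. All 438 introns of the members' reference transcripts were found in GENCODE M21, so coordinates are GRCm38. Of 48626 loci, 48617 had an annotation and 20117 held a reference mRNA. Changes were differences of log2(FPKM + 1), over the 12569 mRNA loci that reached 1 FPKM in any library, and no test was run. The count of changes was tried on simulated data, with planted changes larger than 2-fold at well-expressed loci and sampling noise only. That trial therefore does not cover 2-fold changes, low genes or the spread between animals. Copies were sought with blastn 2.17.0. Alternatives changed the scaling, pseudocount, minimum level and fold. Members, lists, motifs and naming rule (every member accounted for, with the highest, lowest and most changed given in full) were chosen with earlier results of these data known. From the interferon and lymphocyte lists, 1 gene each is not reported here. Calculations used Python 3.11.15, pandas 2.3.3 and numpy 2.4.6.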

Additional observations from a re-analysis of the deposited data

How the results depend on the processing

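No paired analysis was possible because there is 1 library per stage, and for the same reason no library could be left out. Of 504 alternatives to the values that answer a comparison, 457 stayed within 1.5-fold. This share is no measure of robustness, since changing the minimum level or leaving out joined loci left most subunit-group medians identical. Of 372 such alternatives to a signed change, 16 changed sign, 12 of them by rescaling. Each of these 16 had a change of 0.44 or less in size as reported, such as the difference between Psmb8 and Psmb5 from E10.5 to E13.5, which was -0.14. Of 978 alternatives to the other values, mostly changes of single genes, 38 changed sign, 36 of them by rescaling. Those reached a size of 0.87 as reported, and none was 2-fold. Of the 504 alternatives, the following moved, and the cause was not tested. From E10.5 to E13.5, the number of members that rose went from 0 to 2 with a pseudocount of 0.1 and to 8 at 1.5-fold. The number that fell went from 1 to 2 without globin and mitochondrial loci, to 2 at 1.5-fold, to 0 at a change of 2 and to 0 without the 8 members with a copy. From E13.5 to the adult, the 21 falls became 3 with median-of-ratios scaling, 8 without globin and mitochondrial loci, 1 at a change of 2 and 35 at 1.5-fold. Over the whole interval, the 8 falls became 2 with median-of-ratios scaling, 0 at a change of 2 and 23 at 1.5-fold. Over all mRNA loci from E10.5 to E13.5, 740 rises became 422 without globin and mitochondrial loci, 1276 with pseudocount 0.1, 107 at a change of 2 and 2447 at 1.5-fold, and 609 falls became 1086, 948, 31 and 1521. From E13.5 to the adult, 1637 rises became 2667 with median-of-ratios scaling, 554 at a change of 2 and 2476 at 1.5-fold, and 4029 falls became 2348 with median-of-ratios scaling and 1242 at a change of 2. Over the whole interval, 1856 rises became 703 at a change of 2, and 3430 falls became 2237 with median-of-ratios scaling, 1018 at a change of 2 and 5359 at 1.5-fold. The median change of the other proteasome genes after E13.5 was -0.19 with median-of-ratios scaling, and that of the immunoproteasome genes from E10.5 to the adult was 3.54 with pseudocount 0.1. As geometric means, the immunoproteasome ratio was 1.27% at E10.5 and 1.33% at E13.5, and its adult value was 9.79 times that at E13.5 and 10.3 times that at E10.5. Without Psmb10 and Psmb7 it was 0.271% and 0.396%, and the adult value was 32.1 times the former and 22.0 times the latter. As plain FPKM ratios, the log2 change of Psmb8 over Psmb5 was 0.76, 4.04 and 4.81 for the 3 comparisons in the order above, and that of Psmb9 over Psmb6 was 5.45 after E13.5 and 4.64 from E10.5. With the copy of Psmb5 added, the difference between Psmb8 and Psmb5 was 0.78 from E10.5 to E13.5 and 4.12 from E10.5 to the adult. Adding the copies and leaving out the members with a copy were chosen after seeing the data. Intervals and tests between animals cannot be given from 1 library per stage, and embryonic values under 1 FPKM rest on few fragments.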

Other observations

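Psmc3ip, the recombination factor whose name matched the rule, was at 8.27, 9.82 and 1.26 FPKM (the E10.5, E13.5 and adult libraries, as in all values that follow) and fell by 2.04 over the whole interval, more than any of the 47 proteasome genes compared. AI314180 (Ecm29), which encodes a proteasome adaptor, was at 43.0, 21.6 and 68.7 FPKM, lowest at E13.5 as Psmd11 and Psme4 were. At the start of Psme4, an unnamed transcript on the opposite strand, 84 bp away, was at 0.297, 0.322 and 2.35 FPKM, highest in the adult as Psme4 was. An unnamed transcript 73 bp from the start of Psmb1 was at 0.236, 0.132 and 2.33 FPKM, while Psmb1 was lowest in the adult. The antisense locus 3110056K07Rik overlaps Psma3 by 6464 bp and was at 2.90, 3.64 and 4.36 FPKM.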
